A study of Mus musculus with 44 samples.

Results

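CD26 (dipeptidyl peptidase 4, encoded by Dpp4) divides the fibroblasts of the normal mouse mammary gland into CD26+ and CD26- cells, and the RNA of these normal fibroblasts (NFs) was compared between the classes within the same mice. The 12 NF libraries, 6 per class and 4 per mouse, are titled wildtype and were taken as the controls out of 44 libraries. They come from 3 of 13 mice. The 3 mice carry paired numbers in their labels (82/83, 49/52 and 44/46), and each pair was counted as 1 mouse. All were EN1-Cre;mTmG recipients, from En1-Cre mice crossed to mTmG mice of the FVB/n strain, that had been transplanted around weaning age with mammary tissue of Cdh1F/F;PtenF/F littermates without WapCre, in glands whose own fat pad was not cleared. Their glands bore no tumor and were taken at the age of mice with end-stage tumors. In these recipients Cre under the En1 promoter switches the mTmG reporter from tdTomato to GFP, so that GFP marks the En1 lineage. Cells without EpCAM, CD49f, CD31 and CD45 were sorted by GFP and CD26 into 4 populations: En1+ and double- cells, which lack CD26, and CD26+ and double+ cells, which carry it. The En1+ and double+ cells belong to the En1 lineage, and the CD26+ and double- cells lie outside it. The other 32 libraries are of cancer-associated fibroblasts (CAFs) from recipients of WB1P (WapCre;Brca1F/F;Trp53F/F) or WB1P-Myc tissue, which also overexpresses Myc, and serve here only to show where NFs differ. Of the 5 WB1P-Myc mice, 2 are labelled 8x8 in their titles, and 1 of the 5 WB1P mice has an En1+ library alone here and so no CD26+ sum.

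CD26 is a membrane-bound peptidase that removes dipeptides from the N-terminus of chemokines, incretins and other peptides. In many mouse tissues Dpp4 and Pi16 mark adventitial fibroblasts, which lie around vessels and in the interstitium and have progenitor properties. Col15a1 marks parenchymal fibroblasts that build basement membrane within the tissue. Mammary fibroblasts make the collagen scaffold of the gland, shape its epithelium with growth factors, and carry receptors for steroid hormones.

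Each NF library held 11483505 to 15240328 counts on genes. Mitochondrial genes took 0.575% to 0.651% of the counts in CD26- libraries and 0.35% to 0.55% in CD26+ libraries, so that the classes did not overlap in this measure, whose part in the results was not tested. Mouse 49/52 stood apart. The first principal component of the 500 most variable genes held 69.2% of the variance and separated the classes, from -40.66 to -13.64 in CD26- libraries and from 8.101 to 56.42 in CD26+ libraries. Within each class the 2 libraries of mouse 49/52 lay highest on it, and those of mouse 82/83 lowest. The second component (19% of the variance) set mouse 49/52 apart from the other mice. Both libraries of a class were added up within each mouse, and the classes were compared over the 3 pairs of sums. Values below are read counts normalised to library size (CPM) with edgeR's TMM factors, and are given for mice 82/83, 49/52 and 44/46 in this order.

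**Figure D1:**
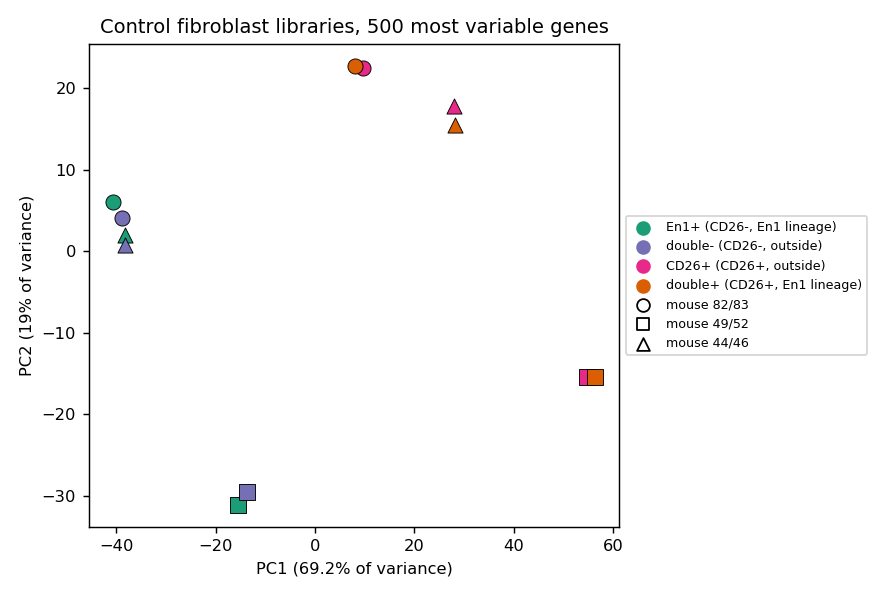
Principal components of the 12 NF libraries over the 500 most variable genes (log2 CPM), with PC1 (69.2% of variance) on the horizontal and PC2 (19%) on the vertical axis. Color gives the sorted population and shape the mouse. CD26- libraries lie at or below -13.64 and CD26+ libraries at or above 8.101 on PC1, and the 4 libraries of mouse 49/52 lie lowest on PC2.

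Dpp4 followed the sort in all 12 libraries. It stood at 2.07, 7.58 and 6.10 CPM in En1+ and at 1.46, 7.36 and 6.25 CPM in double- libraries. In double+ libraries it stood at 272, 865 and 542 CPM, and in CD26+ libraries at 274, 833 and 535 CPM. Since CD26 was the gate, the difference (log2 fold change 6.81 ± 0.20 SE) describes the sort and was not read as a result. The mice differed in it too, with the Dpp4 level of CD26+ cells lowest in mouse 82/83 and highest in mouse 49/52. En1, a homeobox gene whose lineage GFP marks, was at 15.1, 18.9 and 18.3 CPM in double+ and at 7.39, 14.9 and 9.08 CPM in En1+ libraries. Outside the lineage it stood at 7.98, 9.40 and 8.07 CPM in CD26+ and at 4.15, 4.07 and 4.76 CPM in double- libraries. En1 RNA was thus present in each of the 4 populations and higher in the CD26+ sums (log2 fold change 0.87 ± 0.12 SE, adjusted p = 0.0146 by edgeR's quasi-likelihood test), a call that was lost without mouse 44/46 (adjusted p = 0.13 in edgeR) and without the block (adjusted p = 0.12).

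In all, 2004 of 14844 genes tested (13.5%) differed between the classes at an adjusted p (FDR) under 0.05, and CD26+ NFs had the higher level in 1058 (7.13%) and the lower level in 946 (6.37%). The test was edgeR's quasi-likelihood test with mouse as a block and Benjamini-Hochberg adjustment over all genes tested, and p-values rest on the spread between 3 mice. With an absolute log2 fold change over 2 as well, 479 genes (3.23%) remained, 260 (1.75%) higher and 219 (1.48%) lower. Without the block, 202 genes passed the FDR limit, 144 higher and 58 lower. The count also rested on mouse 44/46, without which 267 genes passed (198 higher and 69 lower), against 1775 without mouse 82/83 and 2638 without mouse 49/52. All calls that these fits shared with the full comparison had the same direction. Adjusted p-values below are from the same edgeR test, and log2 fold changes are CD26+ over CD26- NFs, given ± SE. The 6 libraries of one class lay wholly above the 6 of the other for 1475 genes (9.94%).

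The mice kept an order among the genes that differed most. Of the 260 genes higher in CD26+ NFs, the CD26+ sum was highest in mouse 49/52 for 234 (90%) and lowest in mouse 82/83 for 233 (89.6%), against 39.1% and 42.2% of all genes tested. These were the orders that Dpp4 itself took. The CD26- sum of the 260 genes was also highest in mouse 49/52 for 180 (69.2%), against 42.9% of all genes tested. Of the 219 genes lower in CD26+ NFs, the CD26+ sum was lowest in mouse 49/52 for 157 (71.7%), against 38.1% of all genes tested. Their CD26- sum was lowest in that mouse for 123 (56.2%), against 38.4%.

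**Figure D2:**
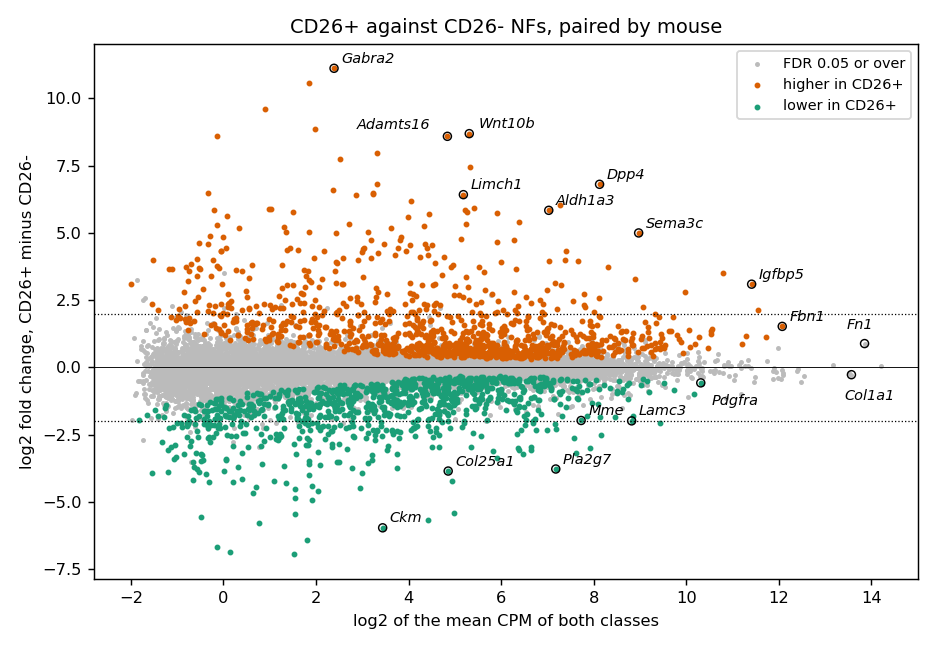
Log2 fold change of CD26+ over CD26- NFs (vertical axis, paired by mouse) against the log2 of the mean CPM of both classes (horizontal axis), 1 point per gene tested. Orange points (1058 genes) are higher and green points (946 genes) lower in CD26+ NFs at an FDR under 0.05, grey points are not called, and dotted lines mark a log2 fold change of 2 in either direction. Named genes are circled, with Wnt10b and Dpp4 high above and Col25a1 and Pla2g7 below, while Col1a1 and Fn1 at the right are grey. The value of Gabra2, which had no count in CD26- NFs, depends on the fit.

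Several genes were close to silent in CD26- NFs and clearly expressed in CD26+ NFs. Gabra2, a subunit of the GABA-A receptor, had no count in any CD26- library. It stood at 4.43, 14.8 and 12.2 CPM in the CD26+ sums, in total 838 counts, which is at least 275-fold higher against a floor of 3 counts over the group. Wnt10b, a Wnt ligand that keeps preadipocytes from differentiating and acts in the embryonic mammary bud, stood at 0.112, 0.394 and 0.0687 CPM in CD26- and at 32.2, 139 and 66.4 CPM in CD26+ sums (log2 fold change 8.69 ± 0.22, adjusted p = 0.000632). Its groups were far apart in all mice, and the CD26+ level was highest in mouse 49/52. Adamts16, a secreted metalloproteinase, stood at 0.224, 0.118 and 0.0687 against 18.4, 82.4 and 70.5 CPM (log2 fold change 8.59 ± 0.47, adjusted p = 0.00187). Akr1c18, which inactivates progesterone, stood at 0.374, 0.433 and 0.446 against 32.0, 143 and 65.7 CPM (log2 fold change 7.44 ± 0.31, adjusted p = 0.00111). For both genes each CD26+ sum lay above every CD26- sum. Spock3, a matrix proteoglycan, had 4 counts in the CD26- and 917 in the CD26+ libraries, a ratio of 225 (95% counting interval 87.7 to 829). The remaining genes of the 10 with the largest rise, beside Dpp4, were Pkd1l2 (7.97 ± 0.24), Gpr1 (6.84 ± 0.33), a receptor for chemerin, St8sia1 (6.60 ± 0.24), the synthase of ganglioside GD3, and Igsf1 (6.48 ± 0.53), all as log2 fold change with SE. All 9 genes beside Dpp4 kept their call without any one mouse and without the block.

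Of the 10 genes with the largest fall among those at 10 CPM or more in CD26- NFs and lower in all 6 library pairs, 2 were of skeletal muscle. Pvalb (-6.95 ± 0.44), Acta1 (-5.43 ± 0.43) and Mylpf (-4.91 ± 0.37), also of muscle, were called lower too and did not meet that rule. Ckm, the muscle creatine kinase, stood at 4.75, 54.8 and 4.70 CPM in CD26- and at 0.246, 0.519 and 0.102 CPM in CD26+ sums (log2 fold change -5.96 ± 0.42, adjusted p = 0.0034). Atp2a1, the calcium pump of fast muscle, stood at 9.12, 110.1 and 6.77 against 0.369, 0.958 and 0.408 CPM (log2 fold change -5.69 ± 0.55, adjusted p = 0.00665). In both genes the CD26- sum of mouse 49/52 was many times those of the other mice. The muscle genes moved as a group: 9 of 22 tested skeletal muscle markers were lower in CD26+ NFs and 0 higher, with a median log2 fold change of -1.94, beside 6.37% lower and a median of -0.0043 over all genes tested. The summed level of the 26 markers was 70.5 to 1054 CPM in CD26- and 53.32 to 130.7 CPM in CD26+ libraries. The highest value was in the double- library of mouse 49/52, while the En1+ library of the same mouse held 88.62 CPM and the other double- libraries 175.7 and 169.2 CPM. Of the 26 markers, 0 to 4 had no count in a library, and Ckm was at 0 in 1 library of the 12 and Acta1 in none. In sorted bulk RNA, fewer cells of a type and less RNA per cell cannot be told apart, and the part of muscle RNA in the results was not tested. Without mouse 49/52 the list had 10 lower calls of 21 tested with a median of -1.19. With the marker genes removed, 2022 genes were called. That removal left the counts of all other genes as they were, so it cannot show the part of muscle RNA.

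The other 8 of these genes are not muscle markers. Pla2g7, which hydrolyses platelet-activating factor, stood at 272, 187 and 335 CPM in CD26- and 48.0, 5.23 and 23.3 CPM in CD26+ sums (log2 fold change -3.78 ± 0.53, adjusted p = 0.0155). Col25a1, a transmembrane collagen, stood at 86.9, 23.2 and 49.0 against 11.5, 0.718 and 2.52 CPM (log2 fold change -3.85 ± 0.39, adjusted p = 0.00749). Each CD26- sum of both genes exceeded every CD26+ sum, and the CD26+ level was lowest in mouse 49/52. Fcgr2b, the inhibitory receptor for IgG, stood at 50.4, 37.1 and 84.8 against 6.76, 0.678 and 3.20 CPM (log2 fold change -4.23 ± 0.53, adjusted p = 0.0118). Tnfrsf19, a receptor of the TNF family, stood at 26.3, 23.6 and 25.4 against 3.24, 0.718 and 2.01 CPM (log2 fold change -3.75 ± 0.36, adjusted p = 0.00665). Its CD26- levels were nearly equal in the 3 mice and its CD26+ levels again lowest in mouse 49/52. Plk5 (-4.49 ± 0.45), Unc80 (-3.93 ± 0.48), Slitrk1 (-3.73 ± 0.61) and Adgrl3 (-3.56 ± 0.25) also fell. Of the 10 genes, 7 missed the threshold without mouse 44/46, with adjusted p = 0.051 to 0.15 in edgeR. Ckm, Atp2a1 and Adgrl3 kept it there, and without the block only Tnfrsf19 did.

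Of 22 tested markers of Pi16+ adventitial fibroblasts, Dpp4 among them, 19 were higher in CD26+ NFs and 0 lower, with a median log2 fold change of 2.58. The call of Dpp4 was fixed by the sort, and this list, like the others, was chosen with earlier results of these data known. Without mouse 44/46 the list had 10 higher calls and a median of 2.36, and without mouse 49/52 it had 19 higher and 1 lower. These counts and those of the lists below stand beside 7.13% higher, 6.37% lower and a median of -0.0043 among all genes tested. Limch1, an actin-binding protein, stood at 0.336, 1.38 and 0.790 CPM in CD26- and 31.9, 119 and 65.2 CPM in CD26+ sums (log2 fold change 6.42 ± 0.11, adjusted p = 0.000243). Sema3c, a secreted semaphorin, stood at 21.0, 56.6 and 18.9 against 549, 1398 and 969.9 CPM (log2 fold change 5.00 ± 0.27, adjusted p = 0.00187). Both were highest in the CD26+ sum of mouse 49/52 and without overlap between the classes. Cd55, which protects cells from complement, stood at 35.5, 64.8 and 30.2 against 321, 939.8 and 522 CPM (log2 fold change 3.72 ± 0.21, adjusted p = 0.00231). Efhd1, a mitochondrial calcium-binding protein, stood at 10.1, 22.2 and 11.6 against 105, 400.4 and 232 CPM (log2 fold change 3.97 ± 0.21, adjusted p = 0.00187). Pi16, a peptidase inhibitor that gives the list its name and was chosen outside the naming rule, stood at 271, 289 and 165 against 941, 2719 and 1638 CPM (log2 fold change 2.79 ± 0.35, adjusted p = 0.0121). Pi16 was thus well expressed in CD26- NFs too. The 3 members without a call were Wnt2, Thy1 and Bmp7. Thy1, an anchored surface protein, stood at 876, 492 and 587 against 838, 305 and 499 CPM, and Bmp7, a BMP ligand, at 145, 31.6 and 97.1 against 36.6, 114 and 60.5 CPM. Bmp7 was lower in CD26+ NFs in 2 mice and higher in mouse 49/52, and its fold change turned positive without mouse 82/83. Without mouse 49/52 it was the member called lower (-1.33, adjusted p = 0.0127 in edgeR).

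Markers of Col15a1+ parenchymal fibroblasts gave fewer calls in the opposite direction. Of 19 tested, 3 were lower and 0 higher in CD26+ NFs, with a median of -0.71. Mme (CD10), a peptidase of the cell surface, stood at 343, 390.0 and 282 CPM in CD26- and 102, 79.9 and 76.8 CPM in CD26+ sums (log2 fold change -1.97 ± 0.13, adjusted p = 0.00313). F3, tissue factor, stood at 198, 327 and 173 against 81.6, 35.6 and 47.2 CPM (log2 fold change -2.11 ± 0.38, adjusted p = 0.0279). Cxcl14, a chemokine, stood at 329.7, 489 and 249 against 165, 59.9 and 91.0 CPM (log2 fold change -1.81 ± 0.41, adjusted p = 0.0485). All 3 separated the classes in each mouse. Col15a1, which forms a basement membrane collagen, stood at 3396, 2542 and 2939.6 against 2658, 772 and 1628 CPM and was not called (log2 fold change -0.97 ± 0.29, adjusted p = 0.0899). Its CD26+ level was far below the CD26- level in mouse 49/52 and within the CD26- range in mouse 82/83. Without mouse 44/46 the calls of Pi16, F3 and Cxcl14 were lost (adjusted p = 0.08 to 0.17 in edgeR), and without mouse 49/52 this list held 3 higher and 7 lower members with a median of -0.33.

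**Figure D3:**
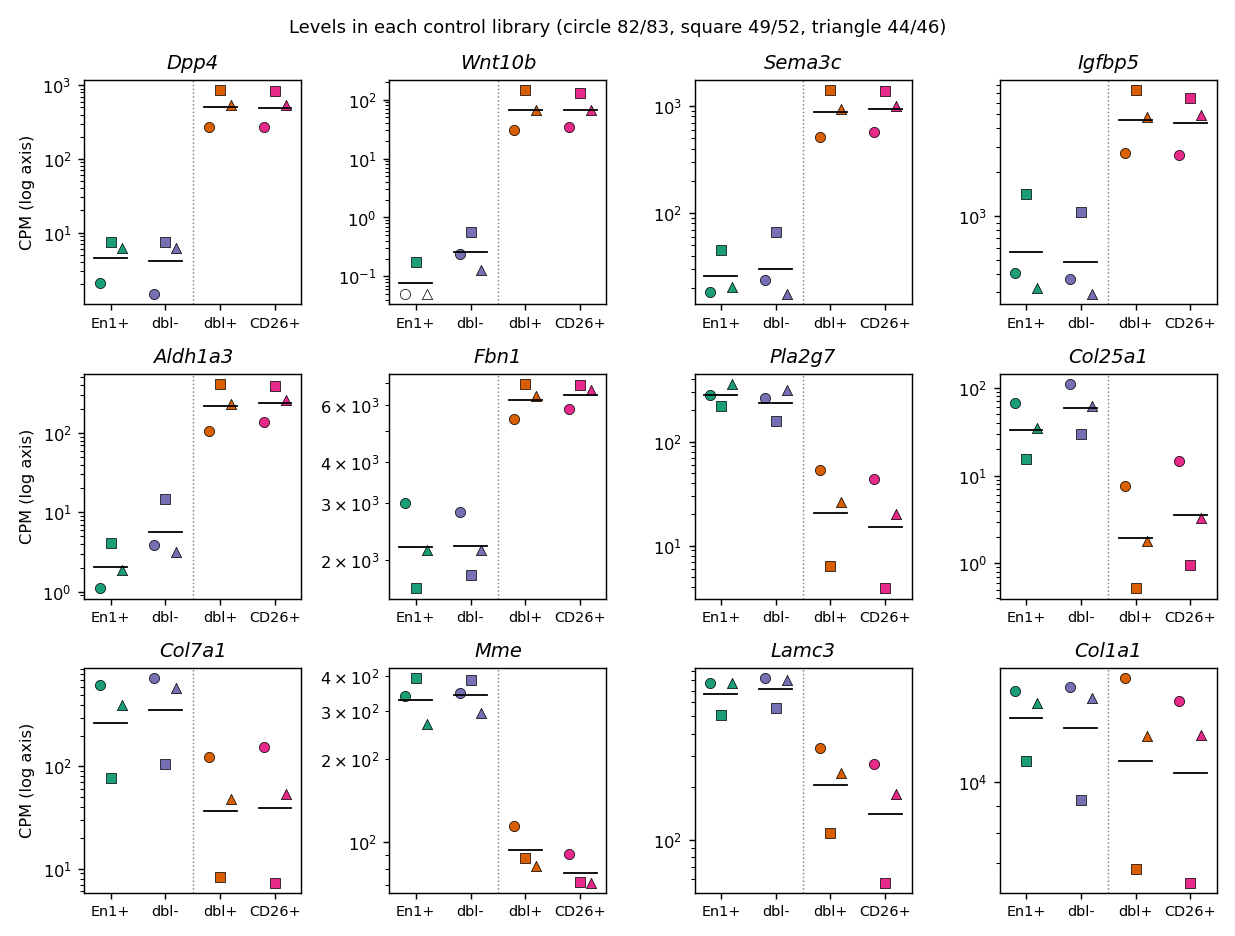
Level of 12 genes in each of the 12 NF libraries, in CPM on a log axis. Columns give the sorted population (dbl-, double-; dbl+, double+), with CD26- populations left and CD26+ populations right of the dotted line, shape gives the mouse, bars are geometric means over the 3 mice, and open symbols mark libraries at 0, drawn at 0.05 CPM. The first 6 genes lie higher in all CD26+ libraries, the next 5 lie lower within each mouse, and Col1a1 overlaps between the classes.

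Promoter sequence was read for 4 genes on which the comparison turned: the gate, a ligand that CD26- NFs nearly lack, a strong adventitial marker, and Megf6, whose difference was not shared by CAFs. The windows hold the 250 bases before the first listed transcript start in RefSeq on GRCm38.p6, written 5′ to 3′ in the direction of the gene. They are Dpp4 (chr2:62412232-62412481, minus strand), Wnt10b (chr15:98778151-98778400, minus strand), Sema3c (chr5:17574566-17574815, plus strand) and Megf6 (chr4:154170463-154170712, plus strand). Capitals mark matches on either strand to the GC box searched as GGGCGG, the TATA box as TATAAA, the AP-1 motif as TGANTCA and the CCAAT box.
Dpp4: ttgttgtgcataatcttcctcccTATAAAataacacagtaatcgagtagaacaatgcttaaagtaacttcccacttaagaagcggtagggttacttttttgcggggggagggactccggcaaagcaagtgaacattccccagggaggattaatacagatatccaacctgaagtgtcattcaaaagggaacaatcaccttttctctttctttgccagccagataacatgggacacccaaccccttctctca
Wnt10b: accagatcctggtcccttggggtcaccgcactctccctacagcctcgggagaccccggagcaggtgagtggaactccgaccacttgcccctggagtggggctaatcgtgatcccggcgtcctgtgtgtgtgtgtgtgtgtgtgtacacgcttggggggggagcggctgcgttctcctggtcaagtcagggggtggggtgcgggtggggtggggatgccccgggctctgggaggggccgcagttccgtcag
Sema3c: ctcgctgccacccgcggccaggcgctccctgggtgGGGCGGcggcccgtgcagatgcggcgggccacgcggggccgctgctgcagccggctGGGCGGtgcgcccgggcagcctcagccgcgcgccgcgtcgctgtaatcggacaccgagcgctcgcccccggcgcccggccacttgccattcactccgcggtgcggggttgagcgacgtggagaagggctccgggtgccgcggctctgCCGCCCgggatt
Megf6: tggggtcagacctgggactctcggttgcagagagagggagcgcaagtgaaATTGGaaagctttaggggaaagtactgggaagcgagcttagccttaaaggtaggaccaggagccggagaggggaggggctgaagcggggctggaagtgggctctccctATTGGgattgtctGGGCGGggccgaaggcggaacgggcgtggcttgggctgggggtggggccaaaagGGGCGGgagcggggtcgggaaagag
The Dpp4 window held 1 TATAAA, 227 bases before the start, and the Wnt10b window none of the motifs. The Sema3c window held 3 and the Megf6 window 2 GC boxes, and Megf6 also 2 CCAAT boxes. The GC box was found in 59% of windows of the 10910 tested genes with one, in 46.2% of the 199 genes higher and in 47.8% of the 159 genes lower by over 2 on the log2 scale. TATAAA was found in 6.59%, 15.1% and 10.7% of these windows. TGANTCA was found in 4.36%, 7.54% and 7.55%, and CCAAT in 36.4%, 29.6% and 30.8%. A match describes letters in the window and no site that was measured.

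Matrix genes that the study names for the NF classes come from its single-cell data of other mice. By its methods each cluster there was compared with the rest of the cells, CAFs among them. The contrast of CD26+ with CD26- NFs here is therefore a different one. Of the 5 named for CD26+ NFs, 4 were higher and 0 lower, with a median of 1.33. Fbn1, the microfibril protein fibrillin, stood at 2904, 1720.0 and 2149 CPM in CD26- and 5647, 6930.1 and 6548 CPM in CD26+ sums (log2 fold change 1.53 ± 0.25, adjusted p = 0.023). Cd248, a membrane glycoprotein of stromal cells, rose by 1.66 ± 0.16, Emilin2 by 1.33 ± 0.15 and Dpt by 1.24 ± 0.18, as log2 fold change with SE. Fn1, fibronectin, stood at 15499.7, 5693 and 11533 against 21085, 17106 and 17964 CPM and was not called (log2 fold change 0.89 ± 0.32, adjusted p = 0.138). It was higher in CD26+ NFs in each mouse, most of all in mouse 49/52. Of the 9 genes named for CD26- NFs, edgeR called 0 in either direction, 4 had an unadjusted p under 0.05, DESeq2 called 4 lower, 8 had a negative fold change, and the median was -0.44. Dcn and Lum, small proteoglycans of collagen fibrils, had log2 fold changes of -0.27 ± 0.19 and -0.47 ± 0.16, and Col5a3 had 0.04 ± 0.21. Col5a3 changed sign when mouse 82/83 or mouse 44/46 was left out. The 4 calls were all lost without mouse 44/46 (adjusted p = 0.068 to 0.19 in edgeR), and that of Dpt also without mouse 82/83 (adjusted p = 0.06).

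Genes that mark fibroblasts in general differed little in mice 82/83 and 44/46, with median log2 ratios of -0.007 and -0.17. In mouse 49/52 the median of these genes was -0.53. Their summed level was 44490 to 63320 CPM in CD26- and 35710 to 69860 CPM in CD26+ libraries, and 2 of 11 were lower and 0 higher, with a median of -0.27. Pdgfra, a receptor for platelet-derived growth factor, stood at 1513, 1559 and 1496 against 927, 1090.0 and 1058 CPM (log2 fold change -0.57 ± 0.12, adjusted p = 0.0416). Pdgfrb, its partner receptor, stood at 1407, 687 and 1135 against 905, 364 and 599.6 CPM (log2 fold change -0.82 ± 0.12, adjusted p = 0.0167). Pdgfra separated the classes and Pdgfrb fell within each mouse while its classes overlapped. Col1a1, the main chain of type I collagen, stood at 14988, 9974 and 14248 against 14913, 6650.3 and 12237 CPM (log2 fold change -0.27 ± 0.24, adjusted p = 0.502). The fold change of Col3a1 was 0.04 ± 0.26 and turned negative without mouse 82/83. Both receptors lost their call without mouse 44/46 (adjusted p = 0.17 to 0.29 in edgeR), and Pdgfra also without mouse 82/83 (adjusted p = 0.19). Both also lost it without the block (adjusted p = 0.16 to 0.45 in edgeR) and in one model of all 25 sums (adjusted p = 0.071 to 0.28).

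Among the collagens the fibrillar chains gave 2 lower and 0 higher calls of 11 (median -0.18), the other collagens 5 higher and 5 lower of 16 (median -0.25), and basement membrane genes 3 higher and 5 lower of 23 (median -0.44). Lamc3, a laminin chain, stood at 794, 536 and 789 CPM in CD26- and 298, 85.3 and 211 CPM in CD26+ sums (log2 fold change -1.99 ± 0.25, adjusted p = 0.0123). Col7a1, which forms anchoring fibrils, stood at 671, 92.0 and 494 against 139.8, 7.90 and 50.6 CPM (log2 fold change -3.01 ± 0.28, adjusted p = 0.00617). Col7a1 fell within each mouse, but its classes overlapped because mouse 49/52 was low in both. Col24a1, a fibrillar chain, also fell (-3.58 ± 0.32). In the other direction Lama4, a laminin chain of vessel walls, stood at 574, 559 and 471 against 1015, 921 and 901 CPM (log2 fold change 0.83 ± 0.11, adjusted p = 0.0134). Col6a6, a chain of type VI collagen, stood at 52.8, 91.8 and 29.4 against 259, 249 and 209 CPM (log2 fold change 2.19 ± 0.28, adjusted p = 0.0121). Col4a5, of type IV collagen, rose by 1.39 ± 0.11, while the abundant Col4a1 (-0.34 ± 0.23) and Col4a2 (-0.44 ± 0.25) were not called. Basement membrane members therefore moved in both directions. The calls of Lamc3, Lama4 and Col6a6 were lost without mouse 44/46 (adjusted p = 0.0501 to 0.15 in edgeR) and that of Lama4 without mouse 82/83 (adjusted p = 0.052).

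Other matrix genes were also divided between the classes. Small leucine-rich proteoglycans gave 2 higher and 3 lower calls of 12 (median -0.41). Aspn (asporin) stood at 81.9, 77.8 and 45.7 CPM in CD26- and 165, 227 and 218 CPM in CD26+ sums (log2 fold change 1.60 ± 0.24, adjusted p = 0.0182), and Fmod (fibromodulin) at 38.7, 55.3 and 38.0 against 8.24, 1.48 and 8.87 CPM (log2 fold change -2.96 ± 0.62, adjusted p = 0.0404). Elastic fibre genes gave 5 higher and 4 lower of 20 (median 0.019). The microfibril gene Mfap5 (0.85 ± 0.11) and Ltbp1 (1.05 ± 0.14), which stores latent TGF-beta, rose beside Fbn1, whereas Fbn2 fell (-1.18 ± 0.13). Adhesive glycoproteins gave 4 higher and 2 lower of 18 (median 0.043). Ccn3, a matricellular protein, stood at 4.71, 10.5 and 4.33 against 51.0, 113 and 92.5 CPM (log2 fold change 3.75 ± 0.23, adjusted p = 0.00273), and Spon1 (spondin) at 1401, 778 and 1089 against 495, 157 and 216 CPM (log2 fold change -2.05 ± 0.21, adjusted p = 0.00725). The 2 genes separated the classes in opposite directions. Tnxb (tenascin-X) rose by 1.12 ± 0.20, and Postn (periostin) was not called (-0.53 ± 0.20). Collagen crosslinking enzymes gave 4 higher and 2 lower of 15 (median 0.17), with Loxl4 higher (1.11 ± 0.10). Of the hyaluronan genes 4 were higher and 1 lower of 12 (median 0.17). Has2, a hyaluronan synthase, stood at 165, 111 and 102 against 344, 504 and 276 CPM (log2 fold change 1.56 ± 0.23, adjusted p = 0.0167), Has1 rose by 0.76 ± 0.13 and the receptor Cd44 by 0.79 ± 0.14, and the link protein Hapln3 fell (-2.26 ± 0.23). Of the 13 calls named here, 11 were lost without mouse 44/46 (adjusted p = 0.054 to 0.23 in edgeR), all but Loxl4 and Ccn3, and Fmod, Tnxb, Has1 and Cd44 were lost without mouse 82/83 (adjusted p = 0.059 to 0.12).

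Matrix proteases and cell receptors for the matrix followed no single direction. Metalloproteinases and their inhibitors gave 3 higher and 4 lower calls of 18 (median -0.64), ADAMTS proteases 6 higher and 2 lower of 18 (median 0.079), and integrins 6 higher and 6 lower of 20 (median -0.24). Timp2, an inhibitor of metalloproteinases, stood at 1119, 2305 and 1197 CPM in CD26- and 2249.9, 4766 and 3303 CPM in CD26+ sums (log2 fold change 1.17 ± 0.17, adjusted p = 0.0157). Adamts5, an aggrecanase, rose by 1.01 ± 0.12, and Mmp16, a membrane-bound metalloproteinase, fell (-1.45 ± 0.13). These 3 genes moved the same way in each mouse with overlap between the classes. Itgb7, an integrin chain best known from lymphocytes, stood at 0.374, 3.03 and 1.17 against 41.2, 129 and 81.9 CPM (log2 fold change 5.92 ± 0.25, adjusted p = 0.00111). The collagen receptor chains Itga11 (67.1, 161 and 74.7 against 255, 576 and 411 CPM, log2 fold change 2.07 ± 0.15) and Itga2 (3.81, 7.48 and 3.23 against 21.5, 65.7 and 41.0 CPM, 3.10 ± 0.23) were higher too. Itgb3 rose by 1.10 ± 0.08 and Itga10, another collagen receptor chain, fell (-1.40 ± 0.17). The common chain Itgb1 was not called (0.02 ± 0.11) and changed sign without mouse 82/83. Mmp16, Timp2, Adamts5 and Itga10 lost their call without mouse 44/46 (adjusted p = 0.052 to 0.17 in edgeR), and Timp2 also without mouse 82/83 (adjusted p = 0.062).

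Wnt ligands gave 3 higher and 2 lower calls of 13 (median -0.3, and 0.37 without mouse 44/46), and Wnt antagonists 2 higher and 3 lower of 7 (median -0.43). Beside Wnt10b, Wnt1 had 3 counts in CD26- and 137 in CD26+ libraries, a ratio of 44.9 (95% counting interval 15 to 220). Wnt4, which acts downstream of progesterone in mammary epithelium, stood at 3.59, 5.87 and 2.54 CPM in CD26- and 0.779, 0.479 and 0.646 CPM in CD26+ sums (log2 fold change -2.57 ± 0.37, adjusted p = 0.0158). Wnt2 (0.74 ± 0.28) and Wnt5a (-0.30 ± 0.15) were not called. Sfrp4, a secreted Wnt-binding protein, stood at 15.1, 58.0 and 21.5 against 100.1, 356 and 208 CPM (log2 fold change 2.87 ± 0.16, adjusted p = 0.00187), and its relative Sfrp2 rose by 1.24 ± 0.09. Dkk3 stood at 166, 141 and 135 against 57.5, 18.0 and 34.6 CPM (log2 fold change -2.14 ± 0.29, adjusted p = 0.0139), and Wif1, which binds Wnt proteins, fell (-3.13 ± 0.52). Ligands and antagonists thus appeared on both sides. Without mouse 44/46 the calls of Wnt1, Wnt4, Dkk3 and Wif1 were lost (adjusted p = 0.072 to 0.18 in edgeR), and without mouse 82/83 that of Wif1 (adjusted p = 0.075).

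BMP and TGF-beta ligands gave 5 higher and 2 lower calls of 17 (median -0.16). Bmp6 stood at 1.42, 0.748 and 0.790 CPM in CD26- and 18.8, 34.4 and 28.1 CPM in CD26+ sums (log2 fold change 4.74 ± 0.36, adjusted p = 0.00393). Bmp3 stood at 4.22, 4.14 and 3.37 against 18.1, 76.9 and 51.9 CPM (log2 fold change 3.45 ± 0.45, adjusted p = 0.013). Bmp8a stood at 0.224, 1.26 and 0.172 against 4.47, 30.0 and 16.3 CPM (log2 fold change 5.02 ± 0.38, adjusted p = 0.00393), with the limit that its close paralog Bmp8b may share reads. These 3 ligands were low in CD26- NFs and separated the classes. Tgfb2 (1.95 ± 0.26) and Bmp2 (1.75 ± 0.22) rose as well, and Gdf10, a ligand of the same family, was not called (-1.41 ± 0.38). Antagonists of BMPs and activins gave 1 higher and 1 lower of 11 (median -0.034). They were Fstl1, at 2072, 1448 and 1547 against 3168, 2998 and 2970.1 CPM (log2 fold change 0.87 ± 0.16, adjusted p = 0.0283), and Fstl3, at 83.8, 38.3 and 50.8 against 30.2, 6.03 and 11.7 CPM (log2 fold change -2.06 ± 0.23, adjusted p = 0.00937). Bmp2, Bmp3, Tgfb2, Fstl3 and Fstl1 lost their call without mouse 44/46 (adjusted p = 0.052 to 0.25 in edgeR) and Fstl1 without mouse 82/83 (adjusted p = 0.073).

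Growth factors to epithelium or vessels gave 8 higher and 5 lower calls of 31 (median 0.0057). Pdgfc stood at 0.747, 2.09 and 1.48 CPM in CD26- and 15.7, 48.2 and 24.8 CPM in CD26+ sums (log2 fold change 4.33 ± 0.14, adjusted p = 0.000894). Fgf2 stood at 21.6, 30.3 and 21.8 against 97.2, 246 and 141 CPM (log2 fold change 2.63 ± 0.18, adjusted p = 0.00315). Fgf18 (2.80 ± 0.26) and the lymphatic growth factor Vegfd (1.50 ± 0.17) rose too, and Ereg, a ligand of the EGF receptor, fell (-1.21 ± 0.12). Vegfa was near equal (0.01 ± 0.13) and changed sign in 4 of 12 other fits. Of 6 IGF-binding proteins 2 were higher and 0 lower (median -0.33). Igfbp5 stood at 387, 1212 and 303 against 2673, 6962 and 4841 CPM (log2 fold change 3.10 ± 0.34, adjusted p = 0.00887), Igfbp6 rose by 1.17 ± 0.16, and Igfbp4 missed the threshold (-0.45 ± 0.11). Axon guidance cues gave 5 higher and 3 lower of 18 (median 0.11). Sema3e, a cue that repels vessels, stood at 0.673, 0.512 and 0.103 against 16.7, 52.4 and 29.9 CPM (log2 fold change 6.19 ± 0.51, adjusted p = 0.00472), and Sema3f at 25.3, 7.92 and 21.0 against 6.07, 1.16 and 2.75 CPM (log2 fold change -2.55 ± 0.21, adjusted p = 0.00475). Nrp1, a co-receptor for semaphorins and VEGF, fell (-1.18 ± 0.08). Class 3 semaphorins thus lay on both sides, with Sema3c and Sema3e higher and Sema3f lower. Without mouse 44/46, Ereg, Vegfd and Igfbp6 lost their call (adjusted p = 0.062 to 0.1 in edgeR).

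Chemokines and their receptors gave 5 higher and 1 lower calls of 18 (median 0.057), and cytokines and their receptors 5 higher and 0 lower of 16 (median 0.053). Complement genes gave 2 higher and 6 lower of 21 (median -0.73). Ackr3, a scavenging receptor for Cxcl12, stood at 84.8, 154 and 40.6 CPM in CD26- and 533, 1278 and 757 CPM in CD26+ sums (log2 fold change 3.30 ± 0.34, adjusted p = 0.00751). Cxcl13, which attracts B cells, rose by 2.60 ± 0.31 and Ccl2, which attracts monocytes, by 0.83 ± 0.12, while Cxcl1 was not called (0.18 ± 0.19). Il33, an alarmin, stood at 26.6, 48.6 and 11.2 against 57.8, 216 and 137 CPM (log2 fold change 2.27 ± 0.48, adjusted p = 0.0409). Il13ra1 stood at 14.4, 14.5 and 12.0 against 53.1, 138 and 101 CPM (log2 fold change 2.74 ± 0.29, adjusted p = 0.00834), and its partner in the type II receptor, Il4ra, rose by 1.27 ± 0.20. The Il33 receptor Il1rl1 rose by 0.83 ± 0.18. C3, the central component of complement, stood at 643, 2696 and 549 against 2695, 6887 and 4430.4 CPM (log2 fold change 2.14 ± 0.35, adjusted p = 0.0218), and Cd59a, which blocks the membrane attack complex, fell (-1.56 ± 0.12). C3 rose in each mouse, but its CD26- level in mouse 49/52 reached the CD26+ level of mouse 82/83. Of the 9 calls named here, 7 were lost without mouse 44/46 (adjusted p = 0.051 to 0.21 in edgeR), all but Ackr3 and Cxcl13, and Ccl2, Il1rl1 and C3 without mouse 82/83 (adjusted p = 0.054 to 0.076).

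Hormone receptors gave 3 higher and 2 lower calls of 13 (median 0.042). Esr1, the estrogen receptor alpha, stood at 31.4, 50.7 and 27.3 CPM in CD26- and 57.5, 119 and 101 CPM in CD26+ sums (log2 fold change 1.33 ± 0.20, adjusted p = 0.0182). Pgr, the progesterone receptor, stood at 0.523, 1.46 and 1.06 against 1.39, 56.7 and 17.7 CPM (log2 fold change 4.19 ± 0.63, adjusted p = 0.0182). The sums of Esr1 separated the classes, although single libraries overlapped, whereas the CD26+ level of Pgr was high in mice 49/52 and 44/46 and low in mouse 82/83. Nr3c2, the mineralocorticoid receptor, fell (-0.66 ± 0.09). Retinoid genes gave 3 higher and 4 lower of 15 (median -0.63). Aldh1a3, which makes retinoic acid, stood at 2.39, 9.89 and 2.54 against 125, 399.7 and 245 CPM (log2 fold change 5.84 ± 0.28, adjusted p = 0.00148), while its relative Aldh1a1 stood at 71.4, 67.2 and 81.3 against 27.9, 25.8 and 52.6 CPM (log2 fold change -1.12 ± 0.17, adjusted p = 0.0188). Both separated the classes, in opposite directions. The retinol transporter Stra6 (-3.21 ± 0.55) and the retinoic acid binding protein Crabp1 (-2.98 ± 0.51) fell, each with a very low CD26+ level in mouse 49/52. Adipogenic and lipid genes gave 3 higher and 2 lower of 21 (median -0.4). Ebf2 (1.39 ± 0.16) and Zfp423 (1.03 ± 0.15), factors of fat precursors, rose, Apoe fell (-0.91 ± 0.18), and Lpl was not called (-0.33 ± 0.20). Of these 10 calls, Aldh1a3 and Aldh1a1 alone kept theirs without mouse 44/46, the other 8 having adjusted p = 0.051 to 0.24 in edgeR.

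Transcription factors of mesenchyme gave 8 higher and 10 lower calls of 33 (median -0.015). Osr2 stood at 14.6, 28.4 and 20.8 CPM in CD26- and 36.9, 163 and 99.7 CPM in CD26+ sums (log2 fold change 2.06 ± 0.24, adjusted p = 0.0104), and Prrx1, a factor of limb and connective tissue mesenchyme, rose by 1.06 ± 0.12. Nr2f2 (COUP-TFII) stood at 60.5, 69.1 and 64.7 against 29.1, 17.3 and 22.7 CPM (log2 fold change -1.52 ± 0.19, adjusted p = 0.0116), and Nr2f1 (-1.29 ± 0.14) and Twist2 (-0.81 ± 0.11) fell as well. Osr2 and Nr2f2 separated the classes in opposite directions, and Klf4 missed the threshold (0.54 ± 0.13). Hox genes, which record the position along the body axis, gave 0 calls of 23 in edgeR and in DESeq2, with 7 at an unadjusted p under 0.05 and a median of -0.19. All 5 calls of transcription factors named here were lost without mouse 44/46 (adjusted p = 0.076 to 0.11 in edgeR).

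**Figure D4:**
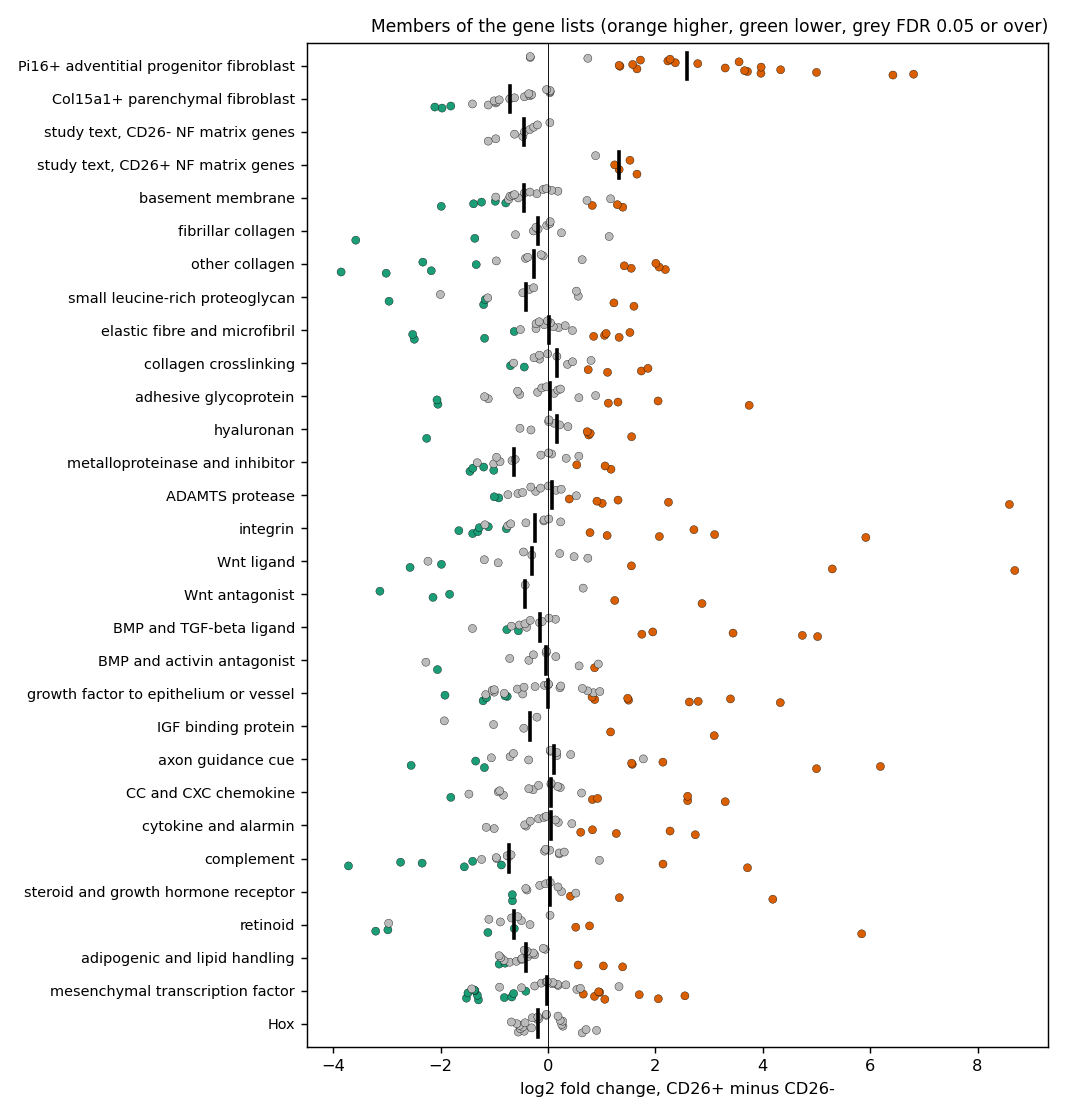
Log2 fold change of CD26+ over CD26- NFs (horizontal axis) for the tested members of each gene list (vertical axis), 1 point per gene, with black bars at the medians. Orange members are higher and green members lower at an FDR under 0.05, and grey members are not called. The adventitial list, which includes Dpp4, lies to the right with a median of 2.58, and most other lists hold members of both colors around a median close to 0.

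Besides skeletal muscle, markers of other cell types differed between the classes. Pericyte markers gave 6 lower and 0 higher calls of 10 (median -1.39), with a summed level of 264.3 to 553.4 CPM in CD26- and 198.2 to 236.3 CPM in CD26+ libraries. Rgs5, a pericyte gene, stood at 16.0, 31.8 and 40.2 CPM in CD26- and 5.49, 4.63 and 8.16 CPM in CD26+ sums (log2 fold change -2.21 ± 0.24, adjusted p = 0.00887). The 2 highest pericyte sums were those of the CD26- libraries of mouse 49/52, at 553.4 CPM in En1+ and 527.3 CPM in double- cells. Abcc9 held 155 and 205 CPM and Notch3 149 and 111 CPM of these sums, while Rgs5 was highest in mouse 44/46. Of the 10 tested pericyte markers, 3 had a positive fold change. Smooth muscle markers gave 5 lower and 0 higher of 10 (median -1.78), with 232.2 to 430.7 CPM against 104.2 to 350.7 CPM. Des, which encodes desmin, was one of these 5 (-2.84 ± 0.43), and Myh11, the smooth muscle myosin, another. Des stood at 28.7 CPM in the double- library of mouse 49/52, where skeletal muscle markers were also highest. It stood at 5.46 CPM in the En1+ library of that mouse and at 5.8 and 5.82 CPM in the other double- libraries. The part of skeletal muscle RNA in the level of Des was not tested. Adipocyte markers gave 4 lower of 7 (median -2.6), with 11.11 to 47.17 CPM against 4.383 to 15.72 CPM, and 0 or 1 of their 8 genes had no count in a CD26- library against 1 to 3 in a CD26+ library. Endothelial markers gave 2 higher and 1 lower of 12, with 39.42 to 98.27 CPM in CD26- and 179.4 to 576.7 CPM in CD26+ libraries. This sum was carried by Tek, the angiopoietin receptor, at 14.7, 24.7 and 16.4 against 158, 472 and 309 CPM (log2 fold change 3.98 ± 0.21, adjusted p = 0.00176), while Pecam1 and Cdh5, which define endothelium, were not called. Without mouse 44/46 the pericyte, smooth muscle and adipocyte lists had 0 calls each, with adjusted p = 0.07 to 0.085 in edgeR for Rgs5 and Des.

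The genes behind the excluding gates were low, with Epcam at 1.11 to 14.3 CPM, Itga6 (CD49f) at 2.99 to 22.9 CPM, Pecam1 at 3.89 to 17.3 CPM and Ptprc (CD45) at 0.26 to 1.99 CPM over the 12 libraries. Epithelial markers gave 1 higher and 3 lower calls of 15, with summed levels of 13.84 to 153.1 CPM in CD26- and 46.93 to 117.6 CPM in CD26+ libraries. Immune markers gave 1 higher and 1 lower of 9, with 25.45 to 49.69 against 25.85 to 39.83 CPM. Schwann and perineurial markers gave 1 higher and 0 lower of 9, with 85.63 to 136.2 against 112.9 to 144 CPM. These 3 sums overlapped between the classes, and at most 3 of 15 immune and 1 of 15 epithelial markers had no count in a library. Mesothelial genes were at 2.781 to 18.13 against 17.62 to 76.15 CPM with 0 calls of 2 tested (1 at an unadjusted p under 0.05), and muscle satellite genes at 2.254 to 6.859 against 0.5995 to 2.205 CPM with 1 lower of 2. Krt19, a member of both the mesothelial and the epithelial list, stood at 71.4 CPM in the CD26+ library of mouse 49/52. The mesothelial list summed to 72.45 CPM and the epithelial list to 104.3 CPM there. Of the 15 epithelial markers, 13 had a negative fold change. Genes of dissociation stress (0 calls of 16, 10160 to 29240 against 10650 to 20760 CPM) and of proliferation (0 calls of 14, 140.9 to 180.5 against 97.53 to 294.2 CPM) overlapped, with 3 and 6 members at an unadjusted p under 0.05 in edgeR and with 2 and 1 calls in DESeq2. Of the proliferation genes 13 of 14 had a positive fold change (median 0.73), and without mouse 49/52, where CD26+ libraries had the lower sums, 8 were called higher (median 0.95). The sums of mouse 49/52 were mostly Pcna. It held 143 of 161 CPM in En1+ and 119 of 140.9 CPM in double- cells. In CD26+ and double+ cells it held 81.1 of 99.72 and 80.4 of 97.53 CPM. Mki67 was low in all 4 populations of that mouse, at 0.694 to 2.47 CPM. The part of these other cells in the results was not tested.

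**Figure D5:**
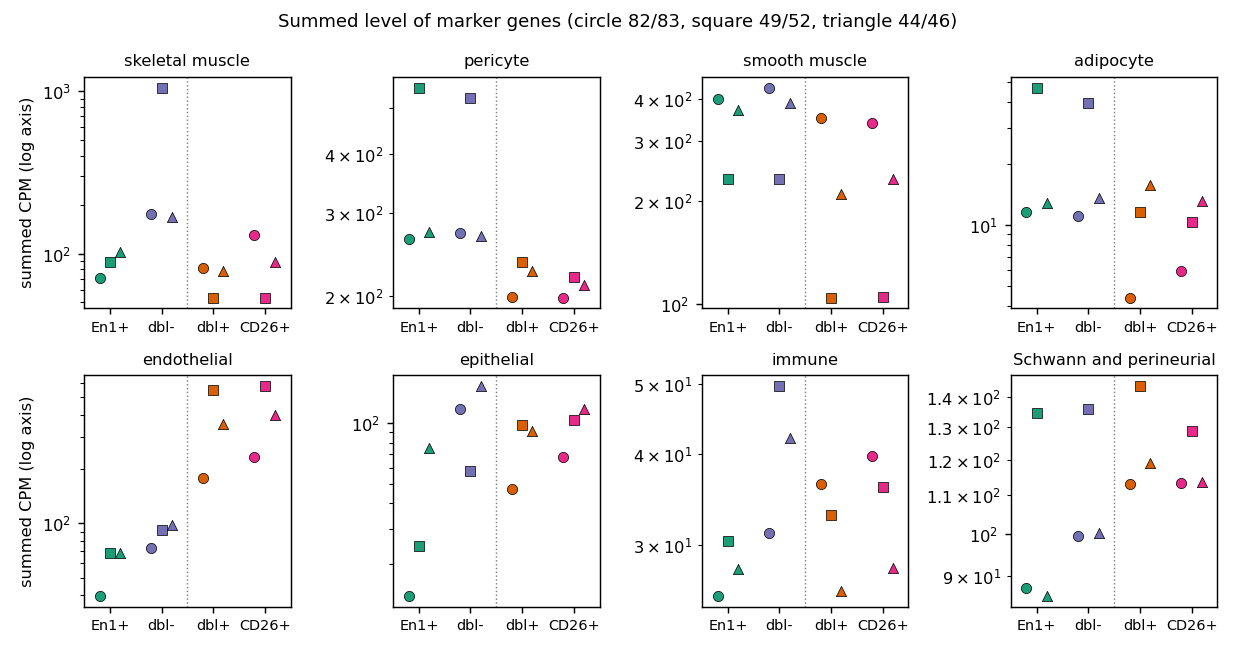
Summed CPM (log axis) of the marker genes of 8 other cell types in each of the 12 NF libraries, by sorted population (dbl-, double-; dbl+, double+) and mouse (shape). The double- library of mouse 49/52 lies highest for skeletal muscle (1054 CPM), both CD26- libraries of that mouse lie highest for pericytes and adipocytes, and all CD26+ libraries lie highest for the endothelial list, which Tek carries.

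The difference between the classes was then compared between cells of the En1 lineage and cells outside it, in one model of the 12 libraries with mouse as a block. Double+ cells differed from En1+ cells in 3227 of 14292 genes (22.6%), and CD26+ cells from double- cells in 3693 genes (25.8%). These counts take the libraries of one mouse as separate units and cannot be set against that of the sums. With the libraries of 1 En1 class fitted alone, 1488 of 13457 genes passed in the lineage and 2133 of 13729 outside it. In the model of 12 libraries both comparisons called 2714 genes, 84.1% of the calls in the lineage and 73.5% of those outside it. All 2714 had the same direction, with mice and model shared between the comparisons. The difference of the 2 effects passed the threshold for 0 genes (0%) in edgeR and for 288 at an unadjusted p under 0.05. DESeq2 called 2 genes, Trdn and Acta1, both of skeletal muscle. Trdn, of the calcium release complex, stood at 0, 0 and 0.0726 CPM in En1+, 0.917, 15.3 and 4.81 CPM in double+, 0.325, 3.86 and 0.456 CPM in double- and 1.11, 9.23 and 4.00 CPM in CD26+ libraries. Trdn was thus higher in the CD26+ than in the CD26- library of each mouse, in both En1 classes, and highest in a double+ library. In this it differed from the muscle markers described above, which were highest in a double- library. Acta1 stood at 264 CPM in the double- library of mouse 49/52.

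CAFs showed where the CD26 difference of NFs was not general. In one model of all 25 sums, the effect in NFs differed from the mean effect in WB1P and WB1P-Myc CAFs for 1010 of 16601 genes (6.08%), and was the higher one for 590 and the lower one for 420. Megf6, a secreted protein with EGF-like repeats, had a log2 fold change of -3.41 in NFs, 0.90 in WB1P and 0.99 in WB1P-Myc CAFs, a difference of -4.35 ± 0.31 (SE, adjusted p = 4.26e-05 in edgeR). On the CPM scale of that model it stood at 7.67 to 226 CPM in CD26- and 0.302 to 26.5 CPM in CD26+ NFs. The CAF classes stood at 13.4 to 91.7 and 33.5 to 113 CPM in WB1P and at 4.45 to 69.9 and 15.1 to 138 CPM in WB1P-Myc tumors, and the classes overlapped in each of the 3 groups. Grip2, a scaffold protein, had fold changes of -1.50, 3.47 and 3.96 (difference -5.22 ± 0.41). Its levels in NFs were low and overlapped, at 0.797 to 1.94 CPM in CD26- and 0.277 to 0.805 CPM in CD26+ sums. Ecscr, known from endothelial cells, had 3.37, -1.36 and -0.66 (difference 4.38 ± 0.38). For these 3 genes the sign in NFs was opposite to that in both kinds of CAF.

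The 2 other genes with the smallest p mark mural or endothelial cells. Rgs5 had fold changes of -2.21 in NFs, -8.13 in WB1P and -8.47 in WB1P-Myc CAFs (difference 6.09 ± 0.49). Its median in CD26- cells was 29.5 CPM in NFs, 737 CPM in WB1P and 1400 CPM in WB1P-Myc CAFs. Esam had -0.40, -4.09 and -5.44 (difference 4.36 ± 0.37), and its effect in NFs was not called (adjusted p = 0.48 in edgeR). Of 11 pericyte markers, 6 had a higher, that is less negative, effect in NFs and 0 a lower one. The adventitial list had medians of 2.58 in NFs, 3.22 in WB1P and 2.71 in WB1P-Myc CAFs, and 3 of its 22 members had a higher and 4 a lower effect in NFs. The count of 1010 rested on the NF mice, with 400, 422 and 258 genes when mouse 82/83, 49/52 or 44/46 was left out, and was 1184 without the 2 mice labelled 8x8.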

How the data were processed

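Fibroblast mRNA libraries (TruSeq stranded mRNA kit, paired-end sequencing) were made by the authors from sorted populations. The deposited table holds raw read counts per gene for 44 libraries, which the authors did not normalize. Per the submitters' processing notes, reads were aligned with HISAT2 2.2.1 to GRCm38, while the counter, its strand setting and the annotation are not given in the sources used here, so that genes overlapping on opposite strands and close paralogs are uncertain. Of 55487 lines, 1 names no gene and holds 0 counts. The paper names 2 sequencing platforms and no batch per library, so that no batch was tested.

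Counts of the 12 control libraries (11483505 to 15240328 each) were summed per mouse and CD26 class. In R 4.3.3 with edgeR 4.0.16 and limma 3.58.1, 40642 of 55486 genes were removed by filterByExpr (minimum count 10) and the rest tested by TMM, glmQLFit and glmQLFTest with mouse as a block, with Benjamini-Hochberg adjustment and thresholds of FDR 0.05 and, as the study states, an absolute log2 fold change of 2. The pairing comes from the mouse in the labels. Deviations of the classes of a mouse from their class means correlated across genes (r = 0.701, 0.706 and 0.59). The En1 comparisons used the 12 libraries, and the comparison with CAFs all 25 sums. Scripts were tested on simulated data. No 2 libraries of the same sorted population, taken from different mice, agreed within sampling noise.

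Named genes were Dpp4, En1, the 10 largest changes per direction (FDR under 0.05, at least 10 CPM in the higher class, same direction in 6 of 6 library pairs), up to 5 called and 2 uncalled members per list, genes the study names, and up to 5 genes per interaction. Members, rule and lists were chosen with earlier results of these data known. Alternatives were DESeq2 1.42.0 (size factors, Wald test), no filter, no replicate block, 12 libraries as units, muscle genes removed, 1 En1 class alone, one model of all sums, one tumor model alone and each mouse left out. Promoter windows come from RefSeq on GRCm38.p6.

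Counting intervals and floors (3 counts over a group) cover counting error only.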

Additional observations from a re-analysis of the deposited data

Results flagged for a closer look

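The difference between CD26+ and CD26- cells was not the same in NFs and CAFs for 1010 genes, by edgeR's test of the effect in NFs minus the mean effect in both kinds of CAF. For the 5 genes with the smallest p, this difference was -4.353 for Megf6, -5.216 for Grip2, 6.086 for Rgs5, 4.364 for Esam and 4.378 for Ecscr, as log2 values. Pericyte markers moved with the effect of Rgs5 and Esam, and Rgs5 is itself one of them, with a median of 1400 CPM in CD26- WB1P-Myc CAFs, where the sum had a median of 4430 CPM. Their summed level in CD26- cells was 258 to 514 CPM in NFs, 1940 to 5620 CPM in WB1P and 2550 to 9600 CPM in WB1P-Myc CAFs, and in CD26+ cells 193 to 216, 260 to 474 and 215 to 377 CPM. Their part in these differences was not tested. The count of 1010 fell to 258 without mouse 44/46.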

How the results depend on the processing

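Mouse as a block, and mouse 44/46, set most counts. Without the replicate block the pairing was lost and 202 genes passed the FDR limit, 142 of them beyond the fold limit as well, 515 genes within and 593 outside the En1 lineage, 351 for NFs against CAFs, and 32 of the 473 tested list members, against 2004, 479, 3227, 3693, 1010 and 191. With each mouse left out in turn these counts ranged from 267 to 2638, from 185 to 605, from 894 to 2854, from 1062 to 3229, from 258 to 1279 and from 39 to 241. All low ends came without mouse 44/46, for which the cause was not tested. With the 12 libraries as units, which takes libraries of one mouse as separate samples, 5692 genes and 331 list members passed. The comparison of NFs with WB1P-Myc CAFs alone gave 523 genes, and DESeq2 gave 1718. The difference by En1 class gave 2 genes, Trdn and Acta1, in DESeq2 and without the filter. Genes with no call changed sign in places: with a mouse left out, Bmp7 ranged from -1.33 to 0.57, Col5a3 from -0.14 to 0.27, Col3a1 from -0.051 to 0.17, Itgb1 from -0.040 to 0.050 and Vegfa from -0.12 to 0.15, and Vegfa had -0.0043 without the block and -0.024 outside the En1 lineage alone. Of 1602 values of 134 genes under these alternatives, 1375 kept direction and side of the threshold, 178 lost the call, 40 gained it and 9 changed sign. The block changed 76 calls of these genes. The removal of muscle genes changed 0, but it left the counts of the other genes as they were and could hardly move them. Of 515 values of 43 list medians, 471 moved by less than the spread between mice and 44 by more. Without mouse 49/52 the median went from -0.44 to -0.18 for basement membrane genes, from -0.64 to -0.31 for metalloproteinases and from -0.73 to -0.39 for complement genes, and for Wnt ligands leaving out a mouse gave -0.39 to 0.37. Depth limits genes at a few counts in one class, such as Wnt1 and Spock3, to ratios with wide counting intervals.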
